A study of Mus musculus with 23 samples.

Results

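The comparison of heart with spleen under high fibre feeding covers 8 of the 23 libraries of the study and all 41388 windows of 3 kb at gene starts. The members are the 4 heart and the 4 spleen libraries whose labels name the high fibre diet, with the 2 count tables joined by window name. All 8 libraries came from male C57Bl/6 mice that ate chow with much resistant starch, the heart libraries from the left ventricle. The mice were housed singly, and the diet began 3 weeks before a minipump was implanted and went on to the end; what the pump delivered is not given in the labels used here. Of the other libraries, 8 came from mice on a control diet without resistant starch and 7, from 3 hearts and 4 spleens, from mice drinking 100 mM magnesium acetate. Heart and spleen titles share numbers (6, 7, 8 and 16 for high fibre), but the labels do not say that a number is a mouse, nor that each library of a tissue is its own mouse; p-values therefore rest on the spread among libraries, which may be technical.

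The assay was MethylMiner capture, in which a methyl-CpG binding protein pulls methylated fragments out of sheared genomic DNA before sequencing. CpG methylation near a gene start is a mark that cell types set differently during development, and a start that is active in a cell type is often unmethylated there. Left ventricle is built of cardiomyocytes, fibroblasts, endothelium and mural cells, while spleen is dominated by B cells, T cells, macrophages and erythroid cells. Because the DNA came from whole tissue, a different mix of cells and a different methylation of each cell cannot be told apart. The files used here hold no unenriched input library, so a count compares captured DNA between libraries and gives no percentage of methylation.

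The capture protein can bind only at CG pairs, so RefSeq promoters of the genes on which the results turn are shown with each CG pair in capitals. They are 250 bases upstream of the start in the RefSeq table of build GRCm38.p6, read 5′ to 3′ on the gene's strand. Gfi1 (chr5:107725806-107726055, minus strand), Hoxa5 (chr6:52204588-52204837, minus strand) and Agap2 (chr10:127078657-127078906, plus strand) gave by far the fewest reads in heart relative to spleen among the genes named by rule. Mybpc3 (chr2:91117894-91118143, plus strand) is a sarcomere gene with fewer reads in heart. Cytip (chr2:58160123-58160372, minus strand) and Plek (chr11:17008719-17008968, minus strand) are leukocyte genes with more reads in heart.
Gfi1: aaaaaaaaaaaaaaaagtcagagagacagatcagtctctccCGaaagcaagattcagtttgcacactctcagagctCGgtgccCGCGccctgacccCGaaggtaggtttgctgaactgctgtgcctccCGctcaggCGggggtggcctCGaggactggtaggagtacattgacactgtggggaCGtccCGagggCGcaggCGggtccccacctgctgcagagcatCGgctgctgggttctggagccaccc
Hoxa5: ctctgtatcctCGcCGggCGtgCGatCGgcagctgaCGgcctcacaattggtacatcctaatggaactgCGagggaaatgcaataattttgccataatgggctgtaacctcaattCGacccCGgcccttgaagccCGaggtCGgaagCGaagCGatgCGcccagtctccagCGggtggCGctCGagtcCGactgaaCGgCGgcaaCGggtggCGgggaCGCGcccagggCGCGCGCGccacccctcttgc
Agap2: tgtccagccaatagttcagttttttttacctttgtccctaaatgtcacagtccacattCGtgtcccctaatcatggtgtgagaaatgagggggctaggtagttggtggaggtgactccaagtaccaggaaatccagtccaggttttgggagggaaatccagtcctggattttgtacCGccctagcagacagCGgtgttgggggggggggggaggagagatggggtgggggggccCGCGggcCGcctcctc
Mybpc3: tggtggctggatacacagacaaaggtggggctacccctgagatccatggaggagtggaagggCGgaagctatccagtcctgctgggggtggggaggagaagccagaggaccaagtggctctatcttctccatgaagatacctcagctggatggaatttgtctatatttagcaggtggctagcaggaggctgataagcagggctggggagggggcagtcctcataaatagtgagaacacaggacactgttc
Cytip: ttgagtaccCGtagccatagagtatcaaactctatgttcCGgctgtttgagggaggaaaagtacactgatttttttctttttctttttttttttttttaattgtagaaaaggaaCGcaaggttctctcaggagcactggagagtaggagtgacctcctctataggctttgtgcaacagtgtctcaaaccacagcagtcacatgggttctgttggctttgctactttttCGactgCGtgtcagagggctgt
Plek: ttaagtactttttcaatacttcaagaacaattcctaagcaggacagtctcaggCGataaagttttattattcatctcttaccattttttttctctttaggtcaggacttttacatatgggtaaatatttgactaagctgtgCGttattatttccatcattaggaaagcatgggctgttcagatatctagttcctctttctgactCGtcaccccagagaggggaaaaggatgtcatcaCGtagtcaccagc

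Hoxa5 held 28 CG pairs in these 250 bases, Gfi1 13, Agap2 6, Cytip 5, Plek 4 and Mybpc3 1. Across the 27024 promoters of the table the median was 6, and 91.7% held at least 1 CG pair; the pair reads the same on both strands. The start in the table lies at the edge of the annotated gene for Gfi1, Hoxa5 and Plek, but 30 bases inside it for Mybpc3, 3638 bases inside it for Agap2 and 35427 bases inside it for Cytip. How each 3 kb window was placed, and which start it used, is not given in the sources used here, so a printed stretch may lie outside the counted window.

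The 2 tissues gave libraries of different make-up, and this stood beside every result below. Heart libraries held 4.12 to 5.57 M (mega) counts and spleen libraries 6.65 to 8.26 M, but outside the 5 windows with most reads heart held 3.3 to 4.21 M and spleen 2.14 to 3.5 M. The median count per window was 52 to 70 in heart and 16 to 18 in spleen, and windows without a read made up 11.2 to 11.93% in heart and 19.18 to 21.08% in spleen. The single window of Gm10800, a gene model without a name, held 19.05% ± 1.70 of counts in heart and 55.77% ± 4.70 in spleen (SD, n = 4 each). The 1% of windows with most reads held 28.76% ± 1.82 in heart and 67.26% ± 4.13 in spleen. An enrichment measure, the mean log2 level of imprinted and germline genes minus that of housekeeping genes, was 0.729 ± 0.0299 in heart and 1.782 ± 0.0996 in spleen. No heart library reached the range of the spleen libraries in any of these 3 measures, and each gave an exact two-sided permutation p of 0.0286, the smallest that 4 against 4 libraries allow, and 0.0286 after adjustment over the 3. Gm10800 was picked as the window with most reads, and the lists in the enrichment measure were chosen with results of these data known. These p-values are therefore descriptions. Replicates of 1 tissue differed by more than sampling noise, with chi-square per degree of freedom of 1.56 to 2.54 between heart pairs and 2.45 to 11.8 between spleen pairs. These values include Gm10800, whose share ran from 51.78 to 61.16% among spleen libraries. They are therefore not a measure of noise at the other windows.

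Heart and spleen differed at most gene starts. Of 32937 windows with enough reads, 26849 (81.5%) passed an adjusted p of 0.05 in the quasi-likelihood test of edgeR, 14790 higher in heart (44.9%) and 12059 lower in heart (36.6%). Levels are given as CPM, counts per M counts of a library after TMM scaling, and a log2 value is heart over spleen. The 4 heart libraries lay wholly above the 4 spleen libraries at 40.7% of windows and wholly below them at 33.7%. Of the windows left out, 3704 had no read in any of the 23 libraries. Direction followed the level of the window. Windows were put in 10 equal groups by average level. In the lowest group, heart had a median of 2.48 CPM and spleen 0.493 CPM, with 2801 windows higher in heart and 123 lower. In the highest group, heart had a median of 40.1 CPM and spleen 76.4 CPM, with 169 windows higher in heart and 2819 lower. The median log2 value was 1.84 in the lowest group, 0.02 in group 6 and -1.06 in the highest. The filter for enough reads passes a window if its heart libraries alone reach the minimum. Low windows could enter this way with hardly a read in spleen. Direction in the lowest groups was thus in part fixed by the filter, and it is no support for a tissue difference.

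**Figure D1:**
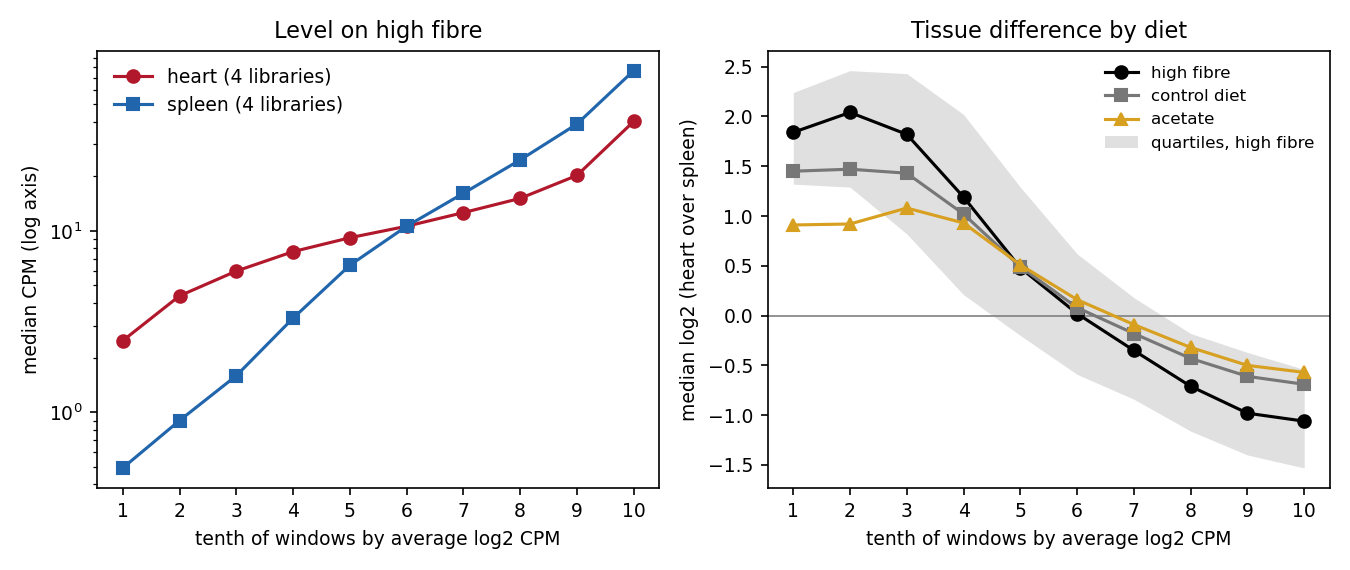
Left, the median CPM of heart and spleen on high fibre in 10 equal groups of windows ordered by average level (log axis). Right, the median log2 value (heart over spleen) of the same groups in the libraries of each diet, with the quartiles of the high fibre windows shaded. The heart line is flatter than the spleen line on the left, and on the right the high fibre medians run between 2.04 and -1.06, with control diet medians between 1.47 and -0.69 and acetate medians between 1.08 and -0.57.

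Because direction followed level, 2 further views are given beside the TMM values. Cyclic loess scaling removes the trend with level; under it 8445 windows (25.6%) were higher in heart and 8975 (27.2%) lower, and of the windows called under both scalings 12434 kept their direction and 1524 were called in the opposite one. Rank percentiles place each window among all windows of its own library and need no scaling; by them every heart library was above every spleen library at 26% of windows and below at 27.1%. On library totals alone the median of all windows was 1.73 in place of 0.20, so directions below are relative to the bulk of windows. Windows and whole list medians that were lower in heart under TMM can be higher on totals.

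Windows whose RefSeq promoter held no CG pair had higher levels in heart under TMM. They lay low in level, where most windows were higher in heart and could pass the filter for reads through heart alone. For 15237 tested windows with a RefSeq promoter of 300 bases, those with no CG pair had a median of 5.72 CPM in heart and 1.18 CPM in spleen. Of these 798 windows 80.7% were higher in heart and 9.77% lower. With 6 to 10 pairs the medians were 12.71 CPM in heart and 17.03 CPM in spleen, with 28.5% higher in heart and 49.9% lower. With over 20 pairs they were 14.15 CPM in heart and 15.81 CPM in spleen, with 37.2% higher and 43.1% lower. Under cyclic loess scaling the medians of the log2 values ran only from -0.03 to 0.29 over the 6 classes.

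**Figure D2:**
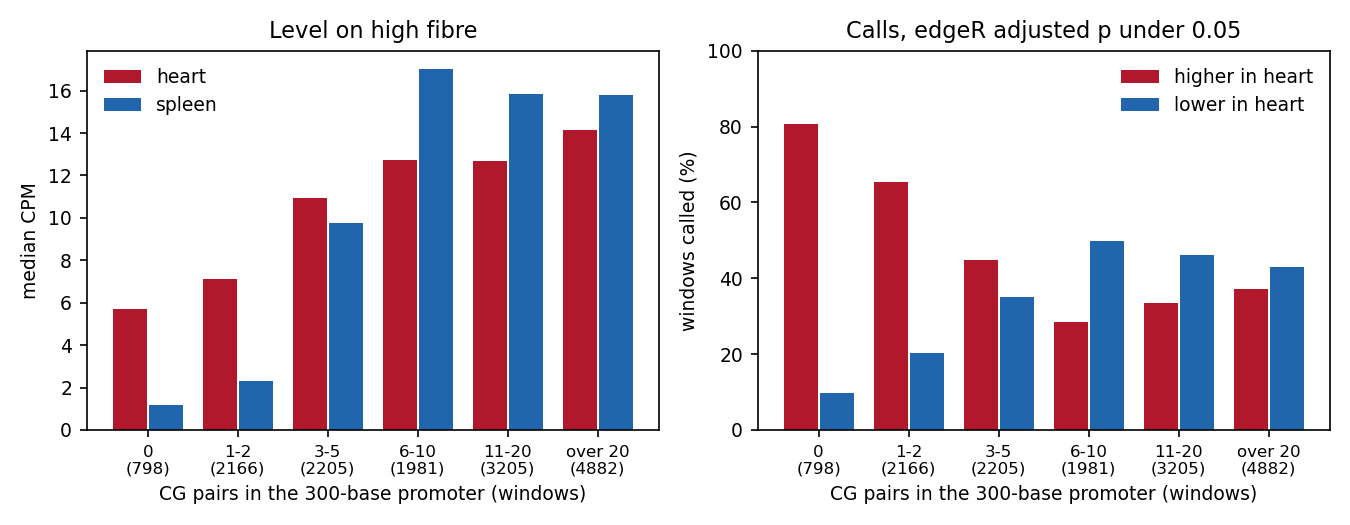
Windows by the number of CG pairs in their RefSeq promoter, with the number of windows below each class. Left, median CPM in heart and spleen on high fibre. Right, the percentage of windows called higher or lower in heart. In the class with 0 pairs heart stands at 5.72 CPM and spleen at 1.18 CPM, while from 6 pairs upward spleen is the higher of the 2.

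Among windows of named genes over the median level and without overlap between tissues, the 3 furthest below spleen belonged to Gfi1, Hoxa5 and Agap2. Gfi1 encodes a zinc finger repressor of blood cell development (chr5:107716655-107725805). Its window had 2.17, 1.35, 0.646 and 2.18 CPM in the 4 heart libraries, from 16, 10, 6 and 20 reads, and 91.3, 62.0, 52.9 and 58.1 CPM in the 4 spleen libraries, from 447, 236, 183 and 265 reads. Every heart library was near the floor of the assay and every spleen library was among the well captured windows, at mean percentiles of 2.74 in heart and 93 in spleen. The log2 value was -5.14 ± 0.37 (SE, edgeR adjusted p = 3.66e-20), and it was -5.06 under cyclic loess scaling.

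Hoxa5, a homeobox gene of axial patterning, had 2.03, 2.30, 1.83 and 3.05 CPM in heart and 89.5, 74.1, 72.8 and 86.6 CPM in spleen. The groups were far apart, with a log2 value of -4.95 ± 0.16 (edgeR adjusted p = 2.46e-23). Agap2, a GTPase-activating protein gene, had 3.26, 4.88, 5.92 and 5.98 CPM in heart and 214, 151, 129 and 159 CPM in spleen. Its log2 value was -4.93 ± 0.24 (edgeR adjusted p = 7.43e-23), and its window ranked at a mean percentile of 22.4 in heart and 99 in spleen.

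Neighbouring windows, picked after their values were seen, did not share 1 direction. In the Hoxa cluster, Hoxa4 averaged 4.78 CPM in heart and 38.2 CPM in spleen, Hoxa6 2.43 and 13.4 CPM, and the antisense windows Hoxaas2 4.06 and 46.1 CPM and Hoxaas3 4.71 and 35.0 CPM, in the same order of tissues. All 4 were called lower in heart. Hoxa7 averaged 12.03 CPM in heart and 11.7 CPM in spleen, and Hoxa10 6.26 CPM in heart and 7.79 CPM in spleen, and neither passed the test (edgeR adjusted p of 0.787 and 0.282). Hoxa9 was called higher in heart at 2.73 CPM in heart and 0.699 CPM in spleen (1.64, edgeR adjusted p = 0.000473), but had a value of -0.46 under loess. Beside Agap2, Mettl1 averaged 2.75 CPM in heart and 24.4 CPM in spleen, and March9 8.54 CPM in heart and 46.3 CPM in spleen. Os9, Avil and Tsfm were also called lower, at -1.81, -1.22 and -1.18. Tspan31 was called higher (0.94, edgeR adjusted p = 0.00405), with a value of -0.56 under loess. Cyp27b1 in the same region averaged 11.03 CPM in heart and 13.7 CPM in spleen and did not pass (edgeR adjusted p = 0.0761). Windows of 3 kb at close starts can share reads, and the counting of strand is not given, so Hoxa5 and the antisense genes beside it may not be independent.

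The other 9 windows of the 12 furthest below spleen by the same rule had log2 values of -3.81 (Gimap1os) to -3.12 (Itpripl2). They were Gimap1os, Gbx2, Hoxaas2, Eva1b, Tenc1, Abhd17a, Ncdn, Gcc1 and Itpripl2. Gbx2, a homeobox gene of the developing brain, had 3.66, 2.98, 2.37 and 3.05 CPM in heart and 40.5, 32.1, 38.4 and 36.8 CPM in spleen. Its groups lay far apart, with a log2 value of -3.50 (edgeR adjusted p = 6.75e-19). Each of the 12 also had a negative log2 value in the libraries of both other diets.

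The 12 windows furthest above spleen, among those over the median level, reached lower levels. Dzip3, a ubiquitin ligase gene, had 23.1, 20.7, 28.0 and 27.5 CPM in heart and 1.02, 2.10, 4.05 and 1.10 CPM in spleen, where the reads were only 5, 8, 14 and 5. The log2 value was 3.49 ± 0.41 (edgeR adjusted p = 2.64e-15). Others were Pign, Mib1, Gmds, Cdh10, Kcnt2, Nxpe5, Smek2, Plek, Slco1a5 and Cd200r4, between 3.40 and 3.04 on the log2 scale. Cdh10 encodes a cadherin and Kcnt2 a potassium channel, both known from neurons. Plek encodes pleckstrin of platelets and leukocytes, and Cd200r4 a member of the CD200 receptor family.

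**Figure D3:**
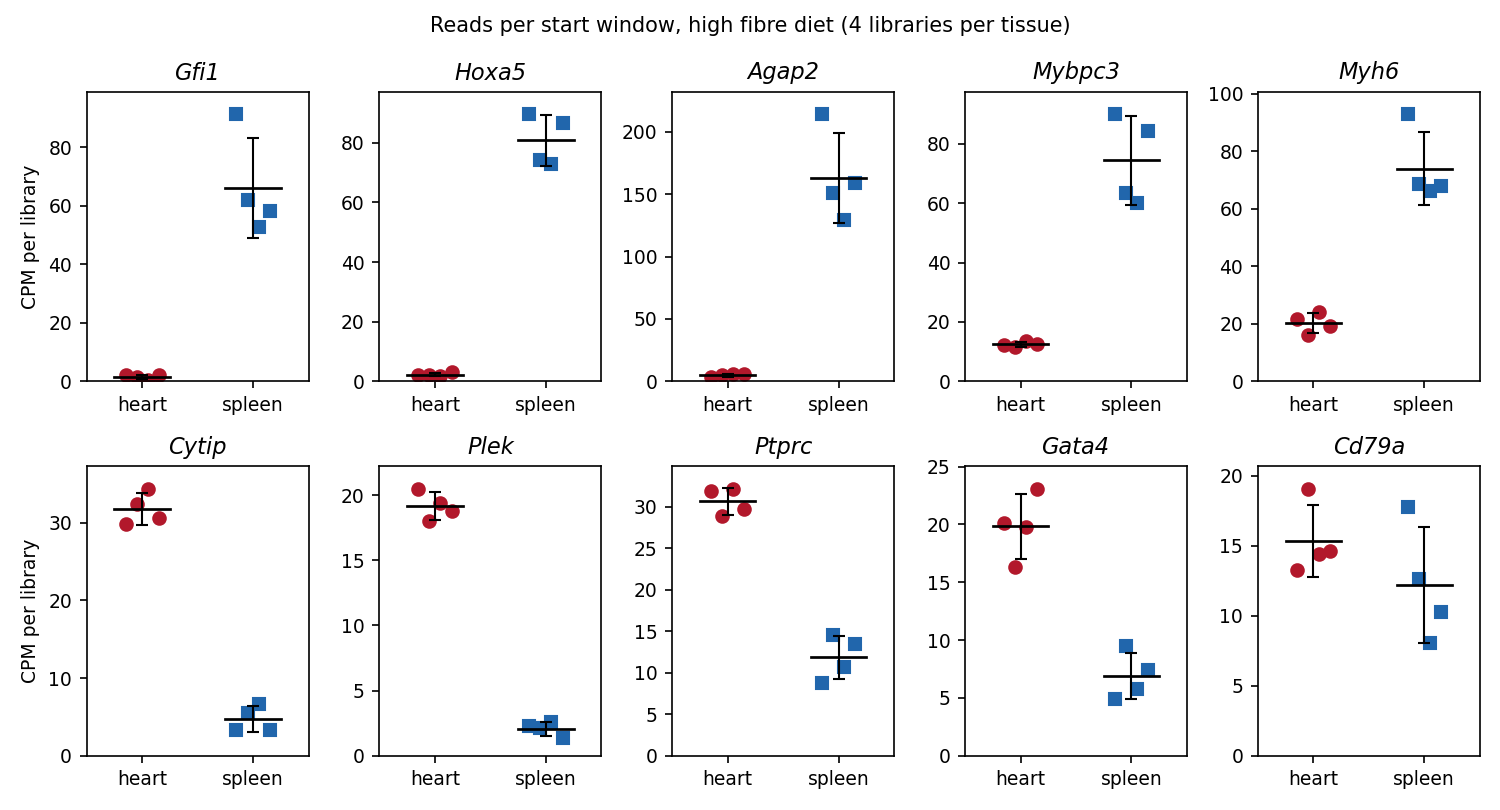
CPM of 10 gene start windows in each library on high fibre, heart at left and spleen at right of every panel, with the mean (line) and SD (bar) of 4 libraries. Gfi1, Hoxa5, Agap2, Mybpc3 and Myh6 in the upper row are lower in every heart library; Cytip, Plek, Ptprc and Gata4 in the lower row are higher in every heart library, and the groups of Cd79a overlap.

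Under TMM, windows of genes that make up the contractile and fuel-burning machinery of cardiomyocytes were lower in heart, relative to the bulk of windows. Of 12 thick filament genes 0 were called higher and 11 lower, against 44.9% and 36.6% of all windows. Their median log2 value was -1.22 under TMM and -0.46 under cyclic loess scaling. On library totals it was 0.37, higher in heart, and -1.36 relative to all windows. By rank percentile 7 lay wholly below and 2 wholly above spleen. The list lay high in level, with a median average of 5.35 log2 CPM against 3.26 for all windows. In the highest of the 10 groups by level, 2819 of 3294 windows were lower in heart, with a median of -1.06. Of 23 fuel genes 2 were called higher and 19 lower, with a median of -0.90 under TMM and -0.60 under loess, and by rank 14 lay wholly below and 2 above. Of 9 thin filament genes 1 was higher and 7 were lower, with medians of -0.66 and -0.21. On library totals the fuel and thin filament medians were 0.66 and 0.93, higher in heart. These lists and those below were chosen with results of these data known, and the counts are descriptions.

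Mybpc3, the myosin binding protein of the cardiac thick filament, had 12.3, 11.6, 13.5 and 12.6 CPM in heart and 89.9, 63.3, 60.1 and 84.2 CPM in spleen. No heart library came near a spleen library, and the log2 value was -2.55 ± 0.15 (edgeR adjusted p = 8.68e-18; -1.67 under loess). Myh6, the main myosin heavy chain of the adult mouse ventricle, had 21.7, 16, 24.1 and 19.4 CPM in heart and 92.8, 68.6, 66.2 and 68.0 CPM in spleen. Its log2 value was -1.85 ± 0.17 (edgeR adjusted p = 8.16e-15). Cpt1b, the muscle form of the enzyme that admits long-chain fatty acids to mitochondria, averaged 16.7 ± 1.07 CPM in heart and 104.8 ± 13.04 CPM in spleen, a log2 value of -2.63. Tcap, the titin cap of the Z-disc, averaged 3.13 ± 0.496 CPM in heart and 21.4 ± 4.04 CPM in spleen, a log2 value of -2.67. Tnnc1 and Tnni3, the calcium-binding and inhibitory troponins, had log2 values of -1.85 and -1.71.

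Other muscle genes were mixed. Tnnt2 had a log2 value of -1.18 under TMM and missed the threshold under loess (-0.21, adjusted p = 0.0522 with limma). Ttn was called lower under TMM (-0.92) and higher under loess (0.31), and Cd36, a fatty acid carrier of heart and vessels, was called higher at 1.85. Nebl, a thin filament anchor, was higher in heart at 0.76. Among 19 Z-disc genes 7 were higher and 9 lower, with Tcap, Nexn, Des and Ankrd1 among the lower and Csrp3, Pdlim5, Vcl and Fhl2 among the higher under TMM; Vcl was not called under loess (0.01). Among 27 genes of cardiac ion channels and calcium handling 13 were higher and 12 lower. These were 48.1% and 44.4%, and those of the Z-disc list 36.8% and 47.4%, against 44.9% and 36.6% of all windows. Kcnj11, a subunit of the ATP-sensitive potassium channel, stood at -2.25 and Jph2, which ties the T-tubule to the calcium store, at -2.10. Pln, the brake on the calcium pump, stood at 2.84. Ryr2, the calcium release channel, averaged 11.2 ± 1.19 CPM in heart and 11.8 ± 2.72 CPM in spleen, overlapped between tissues and was not called (edgeR adjusted p = 0.72). Nppa, the atrial natriuretic peptide gene, averaged 7.84 ± 0.542 CPM in heart and 7.66 ± 1.76 CPM in spleen and was not called (edgeR adjusted p = 0.941).

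Cardiac transcription factors went mostly the other way by window, although not by their sum. Of 19 tested, 13 were called higher in heart and 5 lower, against 44.9% and 36.6% of all windows. The median log2 value was 0.75 under TMM, 0.29 under loess and, on totals, 0.58 relative to all windows. By rank 9 lay wholly above spleen and 1 below. Summed over the list, levels were 313 to 323 CPM in heart and 425 to 514 CPM in spleen. Gata4, a zinc finger factor of heart development, had 20.1, 16.3, 19.8 and 23.1 CPM in heart and 4.90, 9.46, 5.78 and 7.45 CPM in spleen. The groups did not overlap, and the log2 value was 1.49 ± 0.22 (edgeR adjusted p = 3.77e-09; 1.76 under loess). Mef2a, a MADS box factor of muscle, averaged 11.6 ± 2.50 CPM in heart and 1.87 ± 0.854 CPM in spleen, a log2 value of 2.50. Tbx5 and Nkx2-5, a T-box and a homeobox factor of the heart field, were called higher under TMM (1.79 and 1.25) at only 4.52 and 5.71 CPM in heart and 1.11 and 2.26 CPM in spleen. Under loess they stood at 0.00 and -0.19 and were not called. Prdm16 had the smallest p of the list and was lower in heart, at -1.85.

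Genes of vessels and stroma were mixed. The shares called higher and lower were 27.3% and 59.1% for endothelial, 30% and 35% for fibroblast and 21.4% and 57.1% for smooth muscle genes. For all windows they were 44.9% and 36.6%. Of 22 endothelial genes 6 were higher and 13 lower, with a median log2 value of -0.62 under TMM and -0.12 under loess. Fli1, an ETS factor of endothelium that blood cells also use, averaged 6.17 ± 1.21 CPM in heart and 31.5 ± 6.55 CPM in spleen (-2.29). Nos3, endothelial nitric oxide synthase, stood at -1.70, and Emcn, endomucin, at 2.40. Of 20 fibroblast and matrix genes 6 were higher and 7 lower, with Fn1, fibronectin, at -1.56 and Col5a2, a fibrillar collagen, at 2.35. Of 14 smooth muscle and pericyte genes 3 were higher and 8 lower, with Smtn at -2.04 and Tagln at -2.13.

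Most B cell, T and NK cell and pan-leukocyte windows that were called were higher in heart, as were 55.1% of all calls. The shares called higher were 60%, 58.8% and 53.3%, and the shares called lower 10%, 20.6% and 17.8%. Of all windows 44.9% were called higher and 36.6% lower. By rank 26% of all windows lay wholly above spleen and 27.1% below. Of 30 B cell genes 18 were called higher in heart and 3 lower, with a median log2 value of 0.71 under TMM and 0.75 under loess, and by rank 18 lay wholly above spleen and 2 below. Of 34 T and NK cell genes 20 were higher and 7 lower, with medians of 0.79 and 0.61, and 16 above and 3 below by rank. Of 45 genes of signalling and trafficking shared by leukocytes 24 were higher and 8 lower, with medians of 0.59 and 0.65, and 27 above and 5 below by rank. Summed over the B cell list, levels were 392 to 424 CPM in heart and 271 to 310 CPM in spleen, and over the pan-leukocyte list 768 to 838 CPM in heart and 651 to 727 CPM in spleen. Over the T and NK cell list the sum went the other way, with 554 to 604 CPM in heart and 733 to 810 CPM in spleen. Zap70 alone gave 43.4 to 53.3 CPM of it in heart and 162 to 243 CPM in spleen, so this sum leans on a single window. On totals the 3 medians were 0.51, 0.59 and 0.29 relative to all windows. By rank the median window of the B cell list stood at percentile 66 in heart and 47.8 in spleen.

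Cytip, which binds the adhesion regulator cytohesin in lymphocytes, had 29.8, 32.4, 34.4 and 30.6 CPM in heart and 3.27, 5.52, 6.65 and 3.29 CPM in spleen, from 220, 239, 320 and 281 reads in heart and 16, 21, 23 and 15 in spleen. Every heart library was far above every spleen library, and the log2 value was 2.73 ± 0.25 (edgeR adjusted p = 1.15e-15; 3.05 under loess). Its window stood at percentile 91.8 in heart and 39.2 in spleen. Plek had 20.5, 18, 19.4 and 18.8 CPM in heart and 2.25, 2.10, 2.60 and 1.32 CPM in spleen, a log2 value of 3.05 ± 0.18 (edgeR adjusted p = 5.85e-15). Ptprc, the CD45 phosphatase carried by all leukocytes, had 31.9, 28.9, 32.2 and 29.7 CPM in heart and 8.79, 14.5, 10.7 and 13.4 CPM in spleen. The groups lay well apart, at a log2 value of 1.36 ± 0.16 (edgeR adjusted p = 2.83e-10; 2.05 under loess). Arhgap15, Lcp1, Lcp2 and Inpp5d, which act in GTPase regulation, actin bundling and antigen receptor signalling, had log2 values of 2.93, 1.17, 1.28 and 1.36.

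Among B cell genes, Ms4a1, which encodes CD20, averaged 17.4 ± 1.85 CPM in heart and 3.14 ± 0.610 CPM in spleen (2.35, edgeR adjusted p = 1.21e-12). Cd55, a complement regulator, averaged 17.4 ± 1.09 CPM in heart and 1.89 ± 0.826 CPM in spleen (3.02), and Cxcr5, the follicle homing receptor, stood at 1.76. Pax5, the factor that commits cells to the B lineage, had 21.6, 18.8, 23.5 and 23.3 CPM in heart and 7.36, 11.3, 9.54 and 8.77 CPM in spleen (1.23, edgeR adjusted p = 1.29e-08). Cd79a, a subunit of the antigen receptor, averaged 15.3 ± 2.56 CPM in heart and 12.2 ± 4.15 CPM in spleen and was not called (0.30, edgeR adjusted p = 0.123). By rank percentile its heart libraries lay wholly above its spleen libraries. Cd37, a tetraspanin, went the other way with 7.05, 7.04, 7.43 and 6.20 CPM in heart and 38.4, 31.0, 36.4 and 29.6 CPM in spleen (-2.24, edgeR adjusted p = 9.58e-16).

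The T and NK cell genes with the smallest p were lower in heart, although most of the list was higher. Zap70, the kinase of the T cell receptor, averaged 48.7 ± 4.17 CPM in heart and 200 ± 34.1 CPM in spleen (-2.03, edgeR adjusted p = 6.92e-17). Cd8a stood at -1.39, and Cd247, the receptor zeta chain, at -0.95 under TMM and 0.11 under loess, where it was not called. Cd28 and Icos, which costimulate T cells, stood at 1.93 and 2.38, and Gzma, a cytotoxic protease, at 2.45. Il7r, the interleukin 7 receptor, averaged 5.81 CPM in heart and 0.223 CPM in spleen (3.46), and passed the filter for reads through heart. Cd3e averaged 19.4 ± 2.42 CPM in heart and 24.0 ± 5.41 CPM in spleen and was not called (edgeR adjusted p = 0.0619), with a log2 value of -0.29 under TMM and 0.45 under loess, where it passed (adjusted p = 0.0215 with limma).

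**Figure D4:**
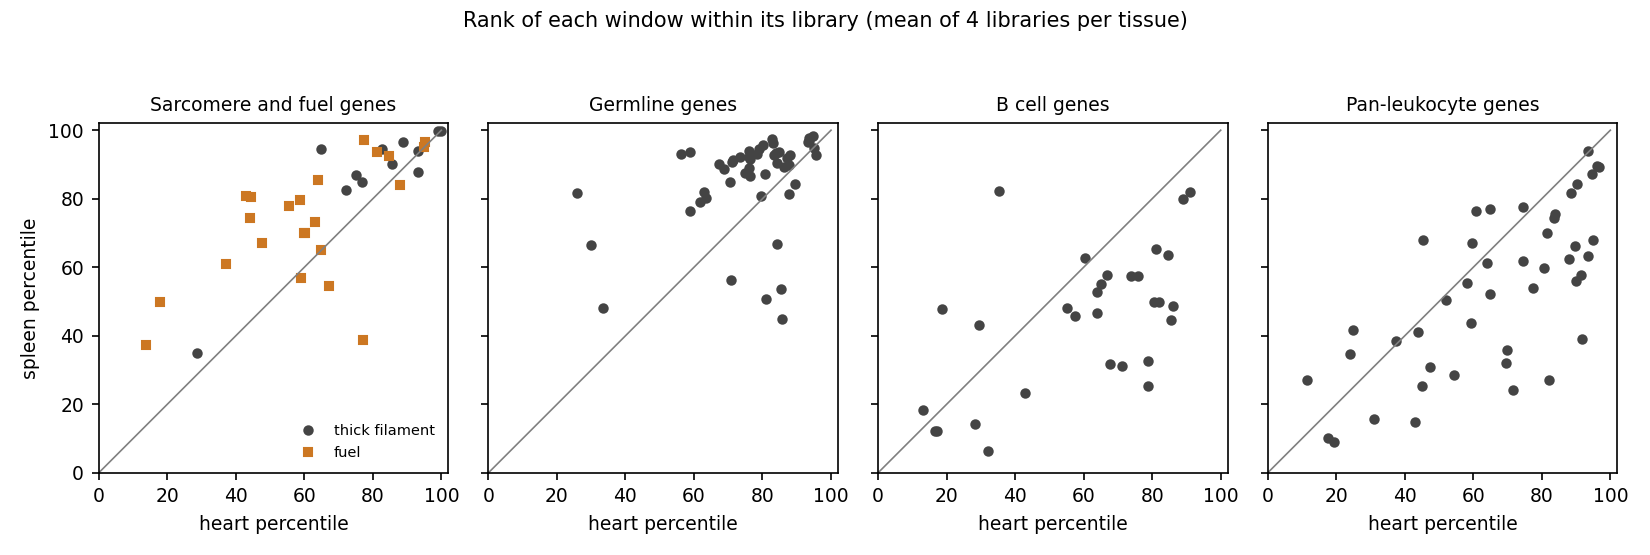
Mean rank percentile of each gene's window within the heart libraries (x axis) and within the spleen libraries (y axis); points above the diagonal rank higher in spleen. Sarcomere, fuel and germline genes lie mostly above the diagonal, and B cell and pan-leukocyte genes mostly below it.

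Transcription factors of blood cells split. Of 35 tested, 10 were higher in heart (28.6%) and 17 lower (48.6%), against 44.9% and 36.6% of all windows. The median log2 value was -0.23 under TMM and 0.10 under loess. Runx3, a runt factor of T and NK cells, had 10.4, 8.94, 9.26 and 10.2 CPM in heart and 85.6, 67.0, 68.2 and 68.2 CPM in spleen (-2.86, edgeR adjusted p = 4.37e-19). Runx1, its relative in blood stem cells, stood at -1.75, Cebpe, a granulocyte factor, at -2.03, and Bcl6, a germinal centre repressor, at -1.42. Ikzf2, Myb and Lmo2 were higher, at 3.35, 2.02 and 1.61. Spi1, the master factor of myeloid cells, averaged 32.5 ± 1.66 CPM in heart and 27.1 ± 5.06 CPM in spleen and was not called (edgeR adjusted p = 0.0711), but ranked at percentile 92.1 in heart and 77.3 in spleen. Gata1, the erythroid factor, was lower in heart under TMM (-0.64) and level under loess (0.06, adjusted p = 0.71 with limma).

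Myeloid, erythroid and antigen presentation genes had no common direction. Their shares called higher were 32.4%, 46.2% and 45%, and their shares called lower 45.9%, 30.8% and 40%. For all windows these were 44.9% and 36.6%, so the last 2 lists lay near the background. Of 37 myeloid genes 12 were higher and 17 lower, summing to 480 to 519 CPM in heart and 635 to 720 CPM in spleen, with Csf2ra, a cytokine receptor, at -2.25 and Cd33, a sialic acid receptor, at 2.01. Of 26 erythroid and platelet genes 12 were higher and 8 lower, with Tfrc, the transferrin receptor, at 2.89, Car2, a carbonic anhydrase, at 2.46 and Ank1, the ankyrin of the red cell skeleton, at -1.31. Of 20 genes of antigen presentation 9 were higher and 8 lower. Tapbp and H2-DMa, which load peptides on class I and class II molecules, stood at -2.54 and -2.38, and H2-Aa and H2-Ab1, the chains of a class II molecule, at 2.21 and 0.97.

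None of the tested markers of 7 cell types was at 0 in all 8 libraries; 1 of 5 T cell markers had too few reads to test. Captured DNA is not expression, so these levels are no check of the tissue. The 8 heart muscle markers summed to 92.2 to 105 CPM in heart and 212 to 255 CPM in spleen, with 2 called higher in heart and 4 lower. The 5 B cell markers summed to 73.6 to 82.9 CPM in heart and 33.2 to 46.5 CPM in spleen. For the 4 tested of 5 T cell markers the sums were 77.1 to 96.2 CPM in heart and 210 to 276 CPM in spleen. Zap70 alone gave 162 to 243 CPM of the spleen sum, and of these markers 1 was called higher in heart and 1 lower. Among all windows 44.9% were called higher and 36.6% lower. The 4 leukocyte markers summed to 92.8 to 110 CPM in heart and 86.1 to 98.9 CPM in spleen. The sums were 49.5 to 56.8 CPM in heart and 87.3 to 101 CPM in spleen for endothelium, 73.7 to 87 CPM in heart and 78.8 to 102 CPM in spleen for fibroblasts, and 57.4 to 64 CPM in heart and 83.3 to 104 CPM in spleen for erythroid cells.

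Gene families that are known to carry promoter methylation in body cells were lower in heart under TMM. The germline and imprinted lists also enter the enrichment measure above, so their results restate that contrast in part. Germline, protocadherin and imprinted windows lay high in level, where most windows were lower in heart. Their median average levels were 5.15, 4.84 and 4.74 log2 CPM, against 3.26 for all windows. Of 49 germline genes 4 were called higher and 43 lower, against 44.9% and 36.6% of all windows. Their median log2 value was -1.45 under TMM and -0.66 under loess. On library totals it was 0.13, higher in heart, and -1.60 relative to all windows. By rank 35 lay wholly below spleen and 7 above. Dazl, an RNA binding protein of germ cells, had 17, 18.8, 25.2 and 19.9 CPM in heart and 135, 91.2, 93.9 and 112 CPM in spleen (-2.40, edgeR adjusted p = 2.44e-17). Taf7l and Fkbp6, which act in sperm development, stood at -2.61 and -2.56. The 4 exceptions were Hsf2bp (1.76), Stag3 (1.17), Tex14 (1.09) and Nlrp14 (0.41). Of 24 clustered protocadherins, the neuronal identity receptors, 0 were higher and 22 lower, with medians of -1.33 and -0.58. On library totals the protocadherin and imprinted medians were 0.25 and 0.58, higher in heart. Pcdhga12 averaged 140.6 ± 5.24 CPM in heart and 500.6 ± 62.7 CPM in spleen (-1.83).

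Imprinted genes, which are methylated on the copy from 1 parent, were lower for 22 and higher for 8 of 31. These were 71% and 25.8%, against 36.6% and 44.9% of all windows. The median log2 value was -1.01 under TMM and -0.34 under loess. Cdkn1c, a cell cycle inhibitor, averaged 20.6 ± 3.18 CPM in heart and 121.4 ± 22.5 CPM in spleen (-2.54, edgeR adjusted p = 5.34e-18). Impact, Mcts2 and Gnas stood at -2.35, -2.19 and -2.07. Zdbf2 and Zim1 were higher, at 3.54 and 1.03.

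Hox genes changed place with the scaling. Of 26 tested, 8 were higher and 6 lower under TMM, with a median of 0.02, while under loess 0 were higher and 16 lower, with a median of -1.13, and by rank 1 lay wholly above and 17 wholly below spleen. Among all windows 44.9% were higher and 36.6% lower under TMM, and 25.6% and 27.2% under loess. The median Hox window stood at percentile 12 in heart and 35.5 in spleen. Hoxb3 averaged 12.9 ± 1.57 CPM in heart and 79.4 ± 4.53 CPM in spleen (-2.59), whereas Hoxd10 averaged 2.99 CPM in heart and 0.102 CPM in spleen (2.91). Hoxd10 passed the filter for reads through its heart libraries. Of 55 other patterning genes 42 were higher and 8 lower under TMM with a median of 1.15, and 15 were higher and 8 lower under loess with a median of 0.01. Tbx18 and Otx1, factors of the epicardium and forebrain, stood at 2.84 and 2.17 under TMM and were called higher under loess too.

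**Figure D5:**
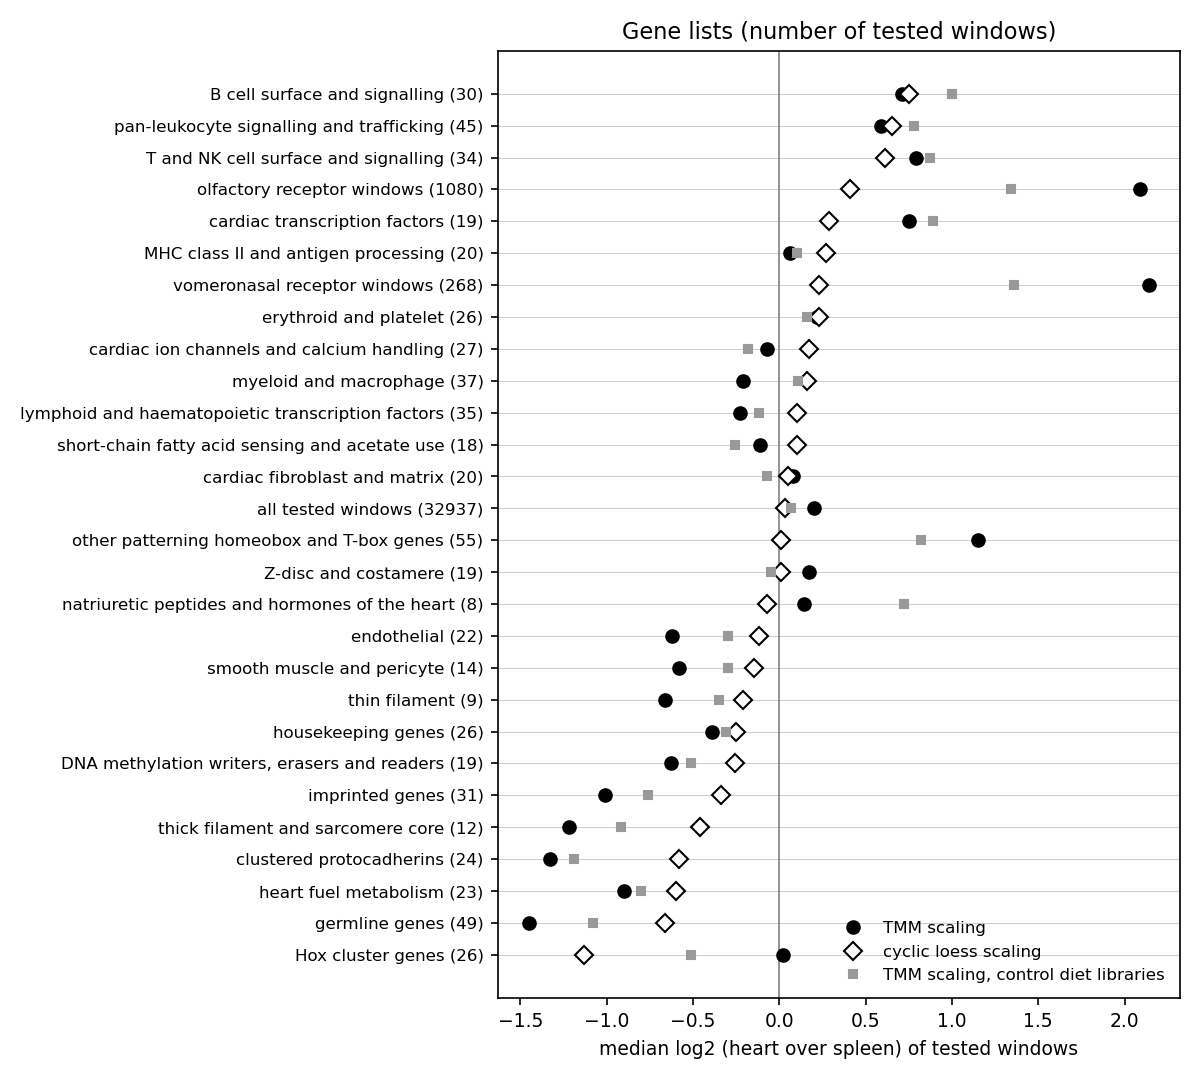
Median log2 value (heart over spleen) of the tested windows of each gene list on high fibre under TMM (filled circles) and cyclic loess scaling (open diamonds), and in the control diet libraries under TMM (squares), with lists ordered by the loess median. B cell, pan-leukocyte and T and NK cell lists stand at 0.75, 0.65 and 0.61 under loess at the top, and germline and Hox genes at -0.66 and -1.13 at the bottom; the Hox median is 0.02 under TMM.

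Receptor and antigen receptor segment windows lay at low levels and were mostly higher in heart under TMM. Windows this low could pass the filter for reads through heart alone. Among all windows 44.9% were called higher and 36.6% lower. Of 1080 olfactory receptor windows 891 were higher and 91 lower, with a median log2 value of 2.09 under TMM and 0.41 under loess. Of 112 heavy chain V segment windows 99 were higher and 6 lower (2.28 and 0.24), of 98 kappa V segments 82 and 8 (2.05 and 0.00), and of 57 T cell receptor alpha V segments 40 and 11 (1.53 and -0.02). Exceptions with the smallest p included Igkv3-2, at 7.98 CPM in heart and 45.4 CPM in spleen (-2.46), and Olfr279, at 19.04 CPM in heart and 83.5 CPM in spleen (-2.12). V segment families have near-identical copies among which reads can be split, so single segments are uncertain. Nearly all joining segments were without a read: 58 of 59 alpha J windows and 15 of 16 beta D and J windows were at 0 in all 23 libraries, as were all 37 mitochondrial genome windows.

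Genes that sense or use short-chain fatty acids, the products of fibre fermentation, were mixed as a group, with 6 of 18 higher in heart and 8 lower. These were 33.3% and 44.4%, against 44.9% and 36.6% of all windows. Ffar2, a receptor for acetate and propionate on leukocytes, had 22.1, 24.5, 25.2 and 20.7 CPM in heart and 105, 73.1, 63.0 and 76.7 CPM in spleen (-1.77, edgeR adjusted p = 2.12e-14). Ffar3, its relative for propionate and butyrate, had 14.9, 12.9, 12.9 and 14.9 CPM in heart and 63.8, 49.1, 41.3 and 55.3 CPM in spleen (-1.90, edgeR adjusted p = 6.48e-15). Both groups were apart without overlap, and both genes stayed lower under loess, at -0.81 and -1.06. Hcar1 and Slc16a3, a lactate receptor and a lactate exporter, stood at -2.16 and -1.79. The lactate and acetate importer Slc16a1 (2.53) and the acetate receptor Olfr78 (2.53) were higher in heart under TMM; Acss2, which makes acetyl-CoA from acetate, averaged 9.14 CPM in heart and 10.2 CPM in spleen and was not called (edgeR adjusted p = 0.434).

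Of 19 genes that write, erase or read DNA methylation 4 were higher in heart (21.1%) and 13 lower (68.4%), against 44.9% and 36.6% of all windows. The median log2 value was -0.63 under TMM and -0.26 under loess. The list lay high in level, with a median average of 5.41 log2 CPM against 3.26 for all windows. In the highest of the 10 groups by level, 2819 of 3294 windows were lower in heart, with a median of -1.06. Tet1, an eraser, had 53.0, 41.2, 46.5 and 43.8 CPM in heart and 124, 112, 110 and 115 CPM in spleen (-1.32, edgeR adjusted p = 2.91e-13). Uhrf1, the partner of maintenance methylation, stood at -1.37. The maintenance enzyme Dnmt1 was lower under TMM (-0.63) and not called under loess (0.17), and the de novo enzyme Dnmt3a was lower under TMM (-0.94) and higher under loess (0.23).

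The tissue difference was present in the libraries of the other 2 diets, which the high fibre comparison did not use. On the control diet 23004 of 30262 windows (76%) and on acetate 16560 of 28386 (58.3%) were called. Of the windows called on high fibre and tested there, 97.9% of 24201 had the same direction on the control diet and 86.9% were also called in it; on acetate these were 96.7% and 69.7% of 22441. Gfi1 stood at -5.14 on high fibre, -5.41 on the control diet and -4.94 on acetate, and Hoxa5 at -4.95, -4.99 and -4.36 in the same order. Cytip stood at 2.73, 2.82 and 2.68, and Ptprc at 1.36, 0.85 and 1.20.

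How many windows had a tissue difference that depended on diet varied with the fit. Make-up also differed between diets in heart. Gm10800 held 17.34 to 21.28% of counts in heart on high fibre and 36.81 to 50.05% in heart on the control diet. In spleen it held 51.78 to 61.16% on high fibre and 51.73 to 57.8% on the control diet. Whether the interaction values follow this make-up was not tested. The test of the high fibre difference minus the control diet difference, over all 23 libraries, called 23 of 33982 windows (0.0677%), 8 higher and 15 lower, while 5516 had an unadjusted p under 0.05. None of the genes named by rule was among the 23, and 12 had Gm symbols. Named here after their values were seen, Gm10800 stood at -3.16 on high fibre and -1.23 on the control diet, an interaction of -1.86 (edgeR adjusted p = 0.0449). Wnk1, a kinase of salt transport, stood at 1.58 and 0.54, an interaction of 1.09 (edgeR adjusted p = 0.0147). Trps1, a zinc finger repressor of bone and cartilage, stood at 1.70 and 0.53 (1.23, edgeR adjusted p = 0.0374), and Il27ra, a cytokine receptor of T cells, at -1.10 and 0.24 (-1.28, edgeR adjusted p = 0.0374). The count was 107 with DESeq2, 576 when only the 16 high fibre and control libraries were fitted, 960 with the number in the titles as a block and 6500 on library totals. It also rested on single libraries among these 16: it was 0 without heart high fibre replicate 4, without heart control replicate 3 or without spleen control replicate 2, it was 619 without spleen control replicate 1, and it lay between 3 and 14 without each of the other 12. The acetate libraries were not left out.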

How the data were processed

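Methylated DNA captured with MethylMiner was counted at gene starts in 4 heart and 4 spleen libraries of mice on high fibre; 15 further libraries entered only the comparisons between diets. The deposited values are raw counts of reads per window, 1 table per tissue, without normalization or pooling by the authors, and 0 columns lacked a sample. Per the submitters' processing notes, the tools were featureCounts 1.5.1, BWA 0.7.10, edgeR 3.16.5 and bcl2fastq 2.19.1.403, and the build was GRCm38. The treatment of duplicates, multiple alignments, strand and overlapping windows is not given in the sources used here. Reads are not independent molecules, so errors cover the spread between libraries only.

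Windows were tested in R 4.3.3 by edgeR 4.0.16 (quasi-likelihood fit) with Benjamini-Hochberg adjustment at 5% over all tested windows, TMM scaling, filterByExpr at a minimum count of 10, and a prior count of 2 for log2 values. A printed SE comes from the log2 CPM of the 8 libraries. Unless another test is named, "called" means past this threshold. Cyclic loess values were tested with limma 3.58.1, and DESeq2 1.42.0 was an alternative; both other diets had separate fits. Composition was tested by exact permutation; the planned share of mitochondrial reads could not be given, since those windows held none. Rank percentiles were added after seeing the data. The edgeR test was also run on 31880 simulated windows. Both tissues shared 1 mean at each window, save those with a planted change. It recovered 72.63% of 95 planted 2-fold and 26.53% of 98 planted 1.5-fold changes, with 1 false call. The simulation held no difference in make-up and no trend with level, so it gives no rate of false calls for the real libraries.

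Members and gene lists were chosen with earlier results of these data known. Genes were named by rule: the 12 largest differences per direction above the median level without overlap between tissues, the 3 smallest p of each list with at least 4 tested members, and a set of 19 genes. Unnamed, cloned and duplicated symbols were skipped, the clone forms after the tables were opened. Other list members, locus neighbours and windows of the interaction were named after their values were seen. A few genes that the rule names are not reported here.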

Additional observations from a re-analysis of the deposited data

Results flagged for a closer look

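In 12 of 280 groups of 4 libraries (137 named windows and 3 composition measures in 2 tissues) 1 library stood apart from the other 3 of its group. The criterion was Dixon's (0.829 for 4 libraries), which chance meets in about 1 in 20 groups. The windows share the same libraries, so these groups are not independent and the number cannot be set against chance. In heart, Cd247 had 56.6 CPM in replicate 1 against 49.0 to 49.6 CPM in the others, Dnmt3l 28.6 CPM against 24.2 CPM, and Tbx18 7.46 CPM against 10.2 to 10.6 CPM. Elane had 7.51 CPM in heart replicate 4 against 8.50 to 8.68 CPM, and Pcdha10 had 123 CPM in heart replicate 2 against 139 to 140 CPM. Spleen replicate 1 was the high library at 6 windows, with 49.7 CPM for Hoxaas2, 70.3 for Eva1b, 103 for Kcnj11, 56.0 for Jph2, 85.6 for Runx3 and 92.8 for Myh6, against at most 44.9, 53.5, 79.4, 44.7, 68.2 and 68.6 CPM in the other 3. The same library had the highest enrichment measure, 1.924 against 1.704 to 1.775. Nkx2-5 had 0.877 CPM in spleen replicate 4 against 2.63 to 2.89 CPM.

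The tissue difference on high fibre differed from that on the control diet by the interaction test at 6 windows the text names or counts: by -1.86 for Gm10800, -1.65 for Gm10801, 1.09 for Wnk1, 1.23 for Trps1, -1.28 for Il27ra and 0.92 for Hook1 on the log2 scale. Heart libraries also differed in make-up between these diets, as given above.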

How the results depend on the processing

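With 26849 windows called by the edgeR fit (14790 higher in heart, 12059 lower), the count lay between 19366 and 28544 under DESeq2, limma voom, no filter, a minimum count of 50, TMM without the 5 windows with most reads, all 23 libraries and a test against a fold of 1.5, and between 26238 and 27497 when each library was left out in turn. Scaling moved it most: library totals gave 28299 higher and 928 lower, cyclic loess 17420 in all with 8445 higher and 8975 lower, and rank percentiles, added after seeing the data, 8560 higher and 8934 lower without overlap.

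The 23 interaction calls (8 higher, 15 lower) became 6500 on totals (6492 and 8), 107 with DESeq2 (49 and 58) and 576 with the 16 high fibre and control libraries (173 and 403). Leaving out each of the 16 high fibre and control libraries in turn gave 0 to 619 calls (0 to 152 higher, 0 to 467 lower); at 0 calls by edgeR, 4009 to 4654 windows had an unadjusted p under 0.05. Same-numbered heart and spleen libraries correlated at -0.076 to 0.129 and share numbers in their titles (6, 7, 8 and 16), but the labels do not say that these are mice; with the replicate number as a block 26119 tissue calls and 960 interaction calls (109 and 851) were made.

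Of 137 named windows (130 tested at a minimum count of 50) none reversed under the alternatives other than 2 scalings. On library totals the log2 values turned to 0.29 for Tpm1, 0.408 for Tnnt2, 0.129 for Npr1, 0.033 for Fn1, 0.197 for Cd8a, 0.631 for Cd247, 0.267 for Siglec1, 0.177 for Elane, 0.285 for Ank1, 0.113 for Tap1, 0.273 for Tet1, 0.214 for Uhrf1, 0.297 for Dnmt3l, 0.138 for Igkv4-81, 1.486 for Ryr2, 1.289 for Cd3e, 0.939 for Gata1, 0.947 for Dnmt1 and 0.651 for Dnmt3a. Under cyclic loess they turned to -0.294 for Apln, 0.114 for Cd247, -0.039 for Trgj1, -0.19 for Nkx2-5, 0.447 for Cd3e, 0.058 for Gata1, 0.165 for Dnmt1 and 0.23 for Dnmt3a. The cause was not tested. Spleen libraries had a median of 16 to 18 counts per window, so low windows are less precise there than in heart.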

Other observations

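Chromosomes differed in their median log2 value. For 25658 windows matched to RefSeq, the medians of the autosomes lay between -0.25 (chromosome 15) and 0.58 (chromosome 14). The X chromosome stood at 0.84 over 1446 windows under TMM and at -0.64 under cyclic loess scaling, with the average level of its windows at 1.95 on the log2 CPM scale, against 3.04 to 3.78 on the autosomes. Small nucleolar RNA windows were higher in heart for 433 of 679 and lower for 140, with a median of 1.19 under TMM and 0.20 under loess. MicroRNA windows were higher for 219 of 584 and lower for 279, with medians of -0.29 and -0.22. Among all tested windows 44.9% were called higher and 36.6% lower.

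Housekeeping genes had no common direction, with 9 of 26 higher in heart (34.6%) and 12 lower (46.2%), against 44.9% and 36.6% of all windows. Tubb5, a tubulin, averaged 7.93 ± 0.519 CPM in heart and 39.7 ± 7.72 CPM in spleen, a log2 value of -2.29. Gapdh stood at -1.82, while Sdha and Tbp, of the respiratory chain and of basal transcription, stood at 1.08 and 0.92 in the edgeR fit.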
